A study of Mus musculus with 2 samples.

Results

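The RNAs of 10 feedback genes of the MAP kinase pathway, Dusp4, Dusp5, Dusp6, Spry1, Spry2, Spry4, Spred1, Etv4, Etv5 and Phlda1, were followed across the cell classes of mouse prostate tumours driven by HGF and MET. They were taken by name from the 28000 features that the 2 single-cell RNA-seq libraries share, and all 10 had a feature. The DoubleTg library (hHGFtg-hMETtg-PBCre) comes from mice with a human HGF transgene expressed throughout the body and a human MET transgene that Cre switches on under the probasin promoter, which acts in prostate epithelium. The TripleTg library (hHGFtg-hMETtg-Ctnnb1-PBCre) carries both transgenes and the same Cre together with a stabilised β-catenin allele that this Cre also switches on. The tissues were labelled prostatic adenocarcinoma and prostatic carcinoma, the mice are of mixed C57BL/6 and C3H SCID background per the methods, and no age is given in the sources used here for the sequenced animals. There was 1 library per genotype, so genotype and library cannot be told apart, no test between genotypes was possible, and every interval below is a 95% interval that covers counting error only.

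When a receptor tyrosine kinase such as MET is activated, RAS, RAF, MEK and ERK are switched on in turn, and ERK induces genes whose products damp the same pathway. DUSP4 and DUSP5 are phosphatases that remove the activating phosphates from ERK in the nucleus, and DUSP6 does so in the cytoplasm. The Sprouty proteins and SPRED1 act upstream, between receptor and RAF, while ETV4 and ETV5 are ETS transcription factors that carry part of the transcriptional response and PHLDA1 is a pleckstrin-homology protein induced early by growth factors. The RNA levels of such genes are therefore often read as a record of recent ERK activity, together with their lineage-specific regulation.

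RefSeq promoters (GRCm38.p6), 250 bases before to 50 after the start, were at hand for 6 of the genes, and those of the 3 genes with an entry that were at least 1.5-fold higher in hMETtg-high luminal-like cells are shown here 5′ to 3′ on the strand of the gene. They stand at chr19:53528895-53529194 (+) for Dusp5, chr10:99262981-99263280 (+) for Dusp6 and chr14:105896770-105897069 (−) for Spry2. Capitals mark every match of the motifs that were searched.
Dusp5: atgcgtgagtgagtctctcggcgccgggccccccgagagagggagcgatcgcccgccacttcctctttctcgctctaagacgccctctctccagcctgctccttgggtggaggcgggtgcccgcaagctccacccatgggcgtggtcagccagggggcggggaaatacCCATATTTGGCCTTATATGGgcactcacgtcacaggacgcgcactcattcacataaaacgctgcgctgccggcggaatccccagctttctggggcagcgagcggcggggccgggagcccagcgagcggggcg
Dusp6: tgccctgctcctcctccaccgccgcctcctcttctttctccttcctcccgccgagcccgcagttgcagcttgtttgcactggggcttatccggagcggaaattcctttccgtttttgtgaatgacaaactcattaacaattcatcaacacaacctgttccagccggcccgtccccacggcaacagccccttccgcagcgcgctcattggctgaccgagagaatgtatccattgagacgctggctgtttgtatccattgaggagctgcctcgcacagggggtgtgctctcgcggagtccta
Spry2: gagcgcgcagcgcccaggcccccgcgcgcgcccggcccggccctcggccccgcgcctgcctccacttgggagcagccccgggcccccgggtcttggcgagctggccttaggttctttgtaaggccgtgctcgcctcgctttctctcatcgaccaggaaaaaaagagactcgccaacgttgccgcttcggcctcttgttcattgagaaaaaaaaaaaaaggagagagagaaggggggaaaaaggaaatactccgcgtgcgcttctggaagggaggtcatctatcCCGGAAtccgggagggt

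On both strands the search covered CCGGAA (a core of ETS sites), TGANTCA (AP-1), TGACGTCA (CREB and ATF), CTTTGAT (TCF/LEF) and the CArG box bound by serum response factor, of which the last was added after the sequences had been read. The Dusp5 window held 2 CArG boxes, which overlap with no other motif, and 1.63% of 32851 promoter windows of the same length held at least 1. The Spry2 window held 1 CCGGAA, which 14.9% of the windows held. The Dusp6 window held none of the 5 motifs, nor did those of Etv5, Spred1 and Spry1. TGANTCA was in 7.81% of all windows, TGACGTCA in 1.79% and CTTTGAT in 3.73%. A match is a description of letters and says nothing of binding.

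The 10 genes lie on 9 chromosomes in GRCm38, and the gene spans from GENCODE are chr8:34807297-34819894 (+) for Dusp4, chr19:53529109-53542431 (+) for Dusp5, chr10:99263231-99267489 (+) for Dusp6, chr3:37639947-37644598 (+) for Spry1, chr14:105891947-105896819 (−) for Spry2, chr18:38586247-38601415 (−) for Spry4, chr2:117121374-117182279 (+) for Spred1, chr11:101769742-101785371 (−) for Etv4, chr16:22381309-22439719 (−) for Etv5 and chr10:111506286-111508645 (+) for Phlda1. All are protein coding.

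Of 12072 DoubleTg cells 10598 passed the limits on genes and mitochondrial UMIs, and of 9492 TripleTg cells 9492 did. The kept cells had a median of 16761 and 20097 UMIs, and 29 cell barcodes occurred in both libraries. Classes were named from marker genes on clusters made without the 10 genes, the pathway genes below and the transgenes. The luminal-like class held 4830 DoubleTg and 4985 TripleTg cells and the basal-like class 1861 and 1167. Clusters that were shallow (1523 and 1030 cells) or of mixed markers (218 and 136 cells) were left unnamed. Levels are UMIs summed over the cells of a class scaled to counts per 1000000 UMIs of that class (CPM). The hMETtg RNA was at 493 CPM in DoubleTg luminal-like cells and 16.7 CPM in basal-like cells. It was at 25.8 CPM in TripleTg luminal-like and 29.8 CPM in TripleTg basal-like cells, below the 131 CPM of the seminal vesicle-like cells of that library. In the DoubleTg library it was also at 122 CPM in endothelial-like and 151 CPM in T and NK-like cells, of which 22 of 278 and 31 of 436 were called doublets, and at 149 CPM in smooth muscle and pericyte-like cells, of which 1 of 65 was.

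Among the ERK phosphatases, Dusp6 stood highest in endothelial-like cells in both libraries. It was at 636 CPM (603 to 670) in DoubleTg and at 288 CPM (267 to 309) in TripleTg endothelial-like cells, and no other class came within the interval in either library. In the DoubleTg library glial-like, other epithelial-like and basal-like cells followed with overlapping intervals (191, 149 and 137 CPM), where 52 of the 154 other epithelial-like cells were called doublets, and luminal-like cells came next with 114 CPM (112 to 115). Macrophage-like cells were at 16.1 CPM and dendritic-like cells at 12.9 CPM. With each cell thinned to 5000 UMIs, 83.8% of DoubleTg endothelial-like cells held a Dusp6 UMI, against 37.3% of luminal-like, 42.5% of basal-like and 6.0% of macrophage-like cells. The order is a description of classes within a library, where depth before thinning was a median of 6099.5 UMIs in endothelial-like and 35919.5 UMIs in luminal-like cells.

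Dusp5 had another pattern and was highest in dendritic-like cells, at 601 CPM (565 to 639) in DoubleTg and 580 CPM (518 to 647) in TripleTg. DoubleTg T and NK-like cells followed with 331 CPM (313 to 350), clear of the next class. Luminal-like cells were at 139 CPM (138 to 141) in DoubleTg, where other epithelial-like, fibroblast-like and macrophage-like cells at 150, 138 and 135 CPM did not differ from them beyond their intervals, and at 109 CPM (107 to 110) in TripleTg. Basal-like cells were close to each other in the 2 libraries, with 71.1 CPM (67.9 to 74.5) and 73.6 CPM (70.4 to 76.8), and ranked last in both, overlapping with glial-like and endothelial-like cells.

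Dusp4 was low in the named classes of the DoubleTg library, between 2.66 CPM (2.07 to 3.37) in basal-like cells and 25.9 CPM (21.7 to 30.7) in seminal vesicle-like cells. In the TripleTg library luminal-like cells were at the top with 85.4 CPM (83.9 to 86.9). Neutrophil-like cells at 73.3 CPM (60.4 to 88.1) did not differ from them beyond the intervals, while smooth muscle and pericyte-like cells at 65.5 CPM and basal-like cells at 61.7 CPM were clear of luminal-like cells.

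The Sprouty genes and Spred1 each had a different order of classes. Spry2 was highest in DoubleTg smooth muscle and pericyte-like cells (311 CPM, 272 to 353) and glial-like cells (302 CPM, 232 to 386), which did not differ beyond their intervals, then in fibroblast-like cells (155 CPM). It stood at 74.5 CPM in basal-like, 44.3 CPM in luminal-like and 2.47 CPM in macrophage-like cells. Spry4 was at 130 CPM in DoubleTg smooth muscle and pericyte-like and 117 CPM in endothelial-like cells, against 13.2 CPM in basal-like and 3.86 CPM in luminal-like cells. Spry1 was highest in DoubleTg fibroblast-like cells (54.0 CPM, 48.8 to 59.6) and in TripleTg endothelial-like cells (57.1 CPM, 48.1 to 67.2), which did not differ beyond their intervals from DoubleTg glial-like (47.9 CPM) and TripleTg smooth muscle and pericyte-like cells (49.9 CPM). Spred1 was the only one of these 4 with a high level in macrophage-like cells, at 174 CPM (160 to 189) in DoubleTg and 135 CPM (125 to 145) in TripleTg, alongside 198 and 111 CPM in endothelial-like cells. Luminal-like cells held 12.8 and 16.5 CPM of Spred1.

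The ETS genes were scarce. Etv4 was highest in basal-like cells, at 15.7 CPM (14.2 to 17.3) in DoubleTg and 18.9 CPM (17.3 to 20.6) in TripleTg, and its level in luminal-like cells was 0.92 CPM (179 UMIs in 4830 cells) and 0.76 CPM (114 UMIs in 4985 cells). In TripleTg, smooth muscle and pericyte-like cells at 15.6 CPM did not differ from basal-like cells beyond their interval, while in DoubleTg that class held 0 Etv4 UMIs, for which the interval reaches 4.86 CPM. Etv5 was highest in smooth muscle and pericyte-like (11.9 CPM, 9 UMIs) and fibroblast-like cells (10.2 CPM) in DoubleTg and in fibroblast-like cells (11.3 CPM) in TripleTg. In luminal-like cells it rested on 32 UMIs in DoubleTg and 71 in TripleTg.

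Phlda1 had its highest level in glial-like cells, with 2403 CPM in 39 DoubleTg cells and 2705 CPM in 25 TripleTg cells, and the next in smooth muscle and pericyte-like cells, with 1250 CPM (1171 to 1332) and 1114 CPM (1056 to 1175). These glial-like cells also carried the highest summed level of the 8 tissue dissociation stress genes among the named classes, 7543 and 9559 CPM, against 2847 and 2479 CPM in luminal-like cells. The part of dissociation in the Phlda1 level was not tested.

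**Figure D1:**
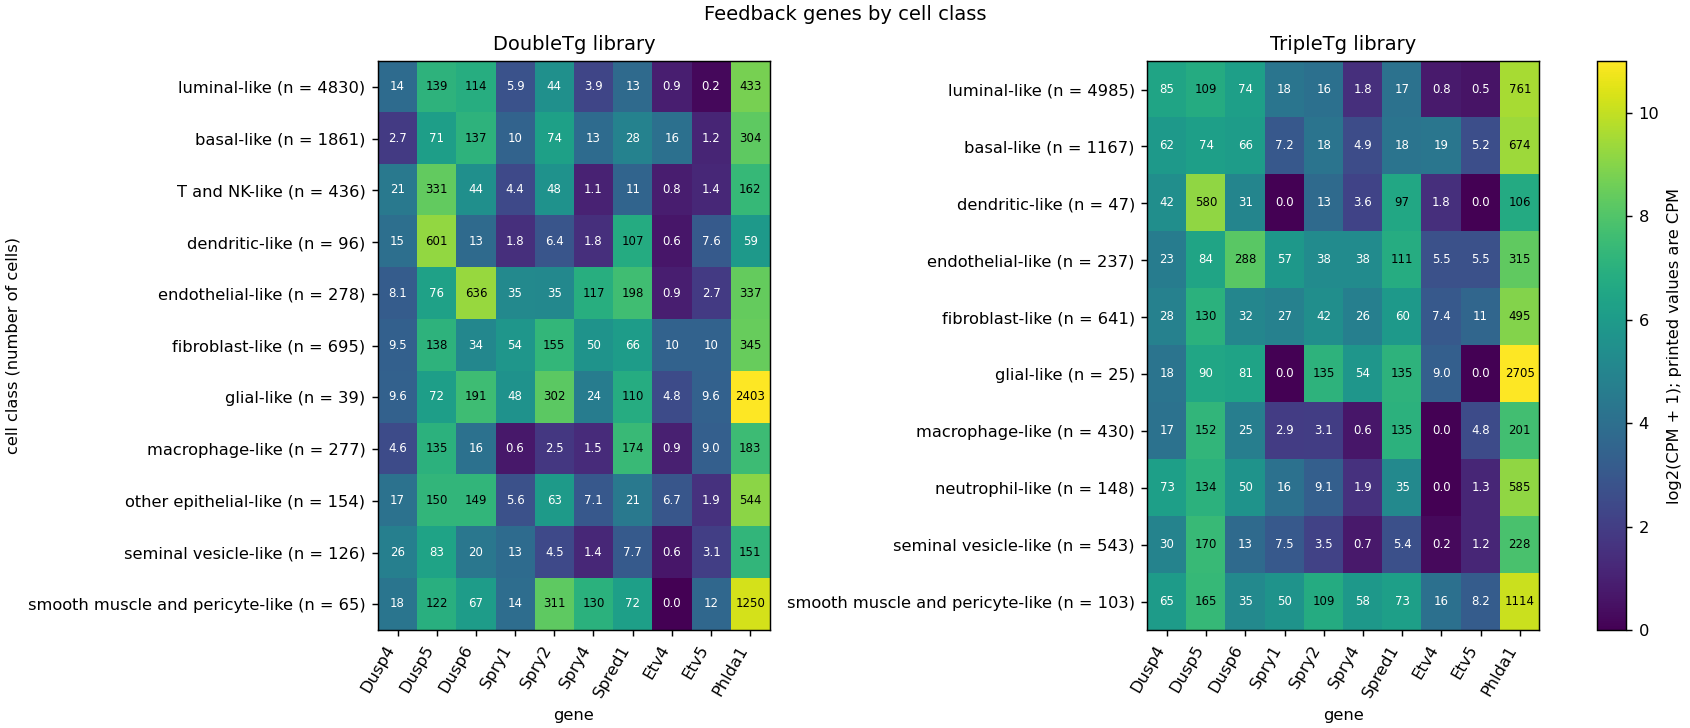
Level of each of the 10 genes (columns) in each named cell class (rows, with the number of cells) of the DoubleTg (left) and TripleTg (right) library, coloured by log2(CPM + 1) with the CPM printed in each tile. Dusp6 peaks in endothelial-like cells (636 and 288 CPM), Dusp5 in dendritic-like cells (601 and 580 CPM) and Phlda1 in glial-like cells (2403 and 2705 CPM).

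Over the 44 clusters with at least 100 cells of both libraries, the genes most like each member in log2(CPM + 1) were ranked by Pearson r among 10051 genes that reach 20 CPM in a cluster. These clusters included the unnamed shallow and mixed ones. Smaller clusters were left out, among them those of glial-like and dendritic-like cells and of DoubleTg smooth muscle and pericyte-like cells. The points share 2 libraries and differ in depth, so the r values are descriptions. Closest to Dusp6 were Irf2bpl (r = 0.86), Clic1 (0.85) and Otud4 (0.84), and closest to Dusp5, which had the weakest likeness, were Ern1 (0.71), Dnajc24 (0.71) and Htt (0.68). Dusp4 was most like Mal (0.87), Net1 (0.87) and Cadps (0.87). Spry1 was most like Tanc1 (0.87), Spry2 most like Klf16 (0.88) and Spry4 most like Dmwd (0.90). Spred1 had the closest partners of all 10, with Arhgef2 (0.93), Dennd5a (0.92) and Fnip1 (0.91). Etv4 was most like Ptk7 (0.87), Gli3 (0.87) and Ltbp1 (0.87), Etv5 most like Fads3 (0.85), and Phlda1 most like Plxnb2 (0.87). Among the members themselves the highest values were those of Dusp4 with Phlda1 (0.71) and of Spry2 with Spry4 (0.68), and Dusp6 with Spry2 had 0.52. No other member was among the 3 genes most like any member.

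The 2 main epithelial classes were then set against each other within the DoubleTg library. Dusp4 and Dusp5 were higher in luminal-like cells and Spry1, Spry2, Spry4, Spred1, Etv4 and Etv5 lower, while Dusp6 and Phlda1 differed by less than 1.5-fold. Of the 10 genes 9 reached 10 CPM in 1 of the 2 classes. By size alone, which is how members and all genes are counted throughout, 2 of these were at least 1.5-fold higher in luminal-like cells, where 28.2% of all 7587 genes at that level were, and 5 were at least 1.5-fold lower, where 33.1% of all genes were. On the log2 scale the ratios of luminal-like to basal-like were 2.35 (2.01 to 2.72) for Dusp4 and 0.97 (0.90 to 1.04) for Dusp5. They were −1.77 (−1.96 to −1.58) for Spry4, −1.15 (−1.27 to −1.02) for Spred1, −0.78 for Spry1 and −0.75 for Spry2. Etv4 had the widest gap with −4.09 (−4.35 to −3.83), and Etv5, at 32 against 31 UMIs, had −2.88 (−3.64 to −2.12). Dusp6 was at −0.27 and Phlda1 at 0.51. The median over the 9 members at 10 CPM was −0.75, and that over the 7587 genes −0.16.

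In the TripleTg library the same ratio passed 1.5-fold upward for Spry1 alone, at 1.34 (1.13 to 1.55), among the 8 genes at 10 CPM, where 16.8% of all genes did, and downward among them for Etv4 alone, at −4.64, where 16.1% of all genes did. Etv5 (−3.46) and Spry4 (−1.44) were also lower in luminal-like cells and lay under 10 CPM in both classes. Etv4 therefore had its basal-over-luminal order in both libraries, and Dusp4, which differed by 2.35 in DoubleTg, differed by 0.47 in TripleTg.

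Genes of the pathway outside the 10 were read beside this. Of 8 receptors with 7 at 10 CPM, 2 were higher in DoubleTg luminal-like cells and 3 lower. Erbb3, a partner receptor of ERBB2, was at 31.8 against 6.1 CPM, and the FGF receptors Fgfr1 and Fgfr2, at 4.1 and 3.9 CPM in luminal-like cells, were at 54.0 and 73.8 CPM in basal-like cells. Of 11 other ERK-responsive genes at that level, 3 were higher, against 28.2% of all genes, and 6 lower, against 33.1%. Ccnd1, which encodes cyclin D1, was at 29.1 CPM in luminal-like and 535 CPM in basal-like cells, and Fos at 275 and 88.2 CPM. Of 10 core kinases and GTPases, 2 were higher (Mapk3, which encodes ERK1, with a log2 ratio of 1.38, and Araf with 1.27) and 4 lower, among them Hras (−0.99). Of the 8 stress genes 1 was higher and 3 were lower.

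Within the luminal-like class the levels varied by cluster. The DoubleTg class comprised 9 clusters, described here by number and leading genes. Cluster 6, of ventral type with Sbp, Sbpl and Spink1 in front, was the lowest of the 9 for 7 of the 10 genes. It held 12.01 CPM of Dusp6 (10.8 to 13.3), 30.2 CPM of Dusp5, 0.71 CPM of Dusp4, 26.2 CPM of Spry2 and 186 CPM of Phlda1. In that cluster the 50 most abundant genes took 61.4% of all UMIs, against 25.8% to 31.6% in the other 8, and Sbp by itself 33.9%. Scaled to the UMIs outside the 50 most abundant genes of any luminal-like cluster, it was still the lowest for 5 genes (Dusp4, Dusp5, Dusp6, Spred1 and Etv4), with cluster 12 below it for Spry2 and cluster 10 below it for Phlda1.

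At the other end, cluster 1, which carried interferon-induced genes such as Ifit3 and Rsad2, had the highest Dusp6 level (181 CPM, 169 to 193). Cluster 13, of proximal type with Psca and Ly6d, came next with 176 CPM, and its interval was not clear of that of cluster 1. Cluster 16, led by Prr9, Tcaf2 and Srpx, had 167 CPM of Dusp6 and the highest Dusp5 (258 CPM, 251 to 265), Spry2 (76.7 CPM) and Spred1 (18.6 CPM). Cluster 13 had the highest Dusp4 (23.8 CPM). Cluster 10, of dorsal type with Tgm4 and Pbsn, departed from a common order, with 239 CPM of Dusp5 but 49.8 CPM of Dusp6 and 226 CPM of Phlda1. Cluster 4, of mucosal type with Spink5, Cxcl17 and Pigr, had the highest Spry4 (10.5 CPM), and cluster 12, led by Alb and Fxyd4, the highest Spry1 (11.96 CPM) and Phlda1 (623 CPM). The cycling cluster 24 had the highest Etv4 (4.08 CPM, 2.28 to 6.73). The hMETtg RNA ran from 133 CPM in cluster 6 to 745 CPM in cluster 13 and 806 CPM in cluster 16.

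The 9 TripleTg luminal-like clusters spanned a narrower range for Dusp6, from 17.8 CPM (15.9 to 19.8) in cluster 20, an alpha-defensin type cluster, to 132 CPM (127 to 137) in cluster 7, led by Rnase1 and Car8. Cluster 20 was also lowest for Dusp5 (64.3 CPM), Spry2 (7.13 CPM), Spry4 (0.37 CPM, 7 UMIs), Spred1 (8.84 CPM) and Etv4 (0.32 CPM), while it held 111 CPM of Dusp4 and the highest Spry1 (22.3 CPM). Its hMETtg level, 39.7 CPM, was the highest of the 9 TripleTg luminal-like clusters, which went down to 5.76 CPM in cluster 8. Dusp4 ran from 37.8 CPM in the interferon-type cluster 16 to 118 CPM in cluster 1, and Phlda1 from 580 CPM in cluster 8 to 910 CPM in the cycling cluster 0. Dusp4 was thus higher in every one of these 9 clusters than in any of the 9 DoubleTg luminal-like clusters, whose highest value was 23.8 CPM.

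**Figure D2:**
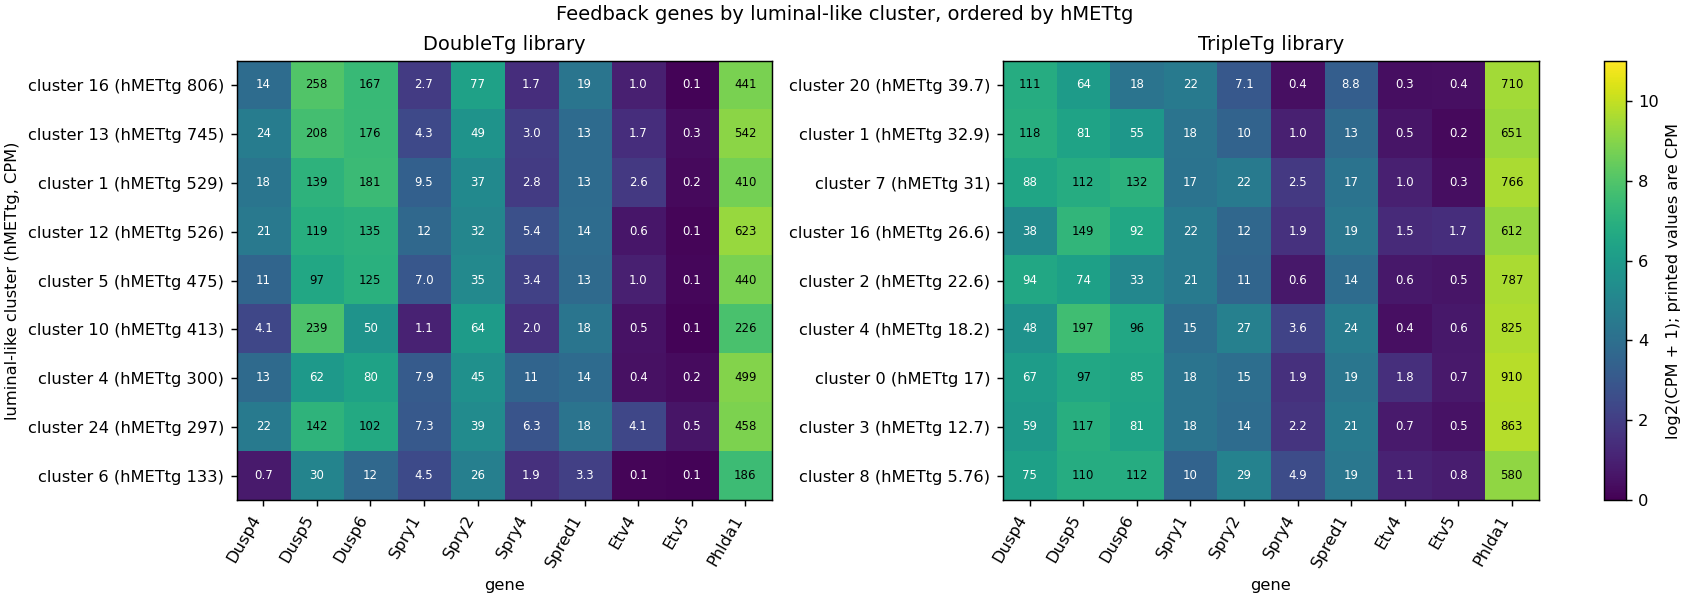
Level of the 10 genes in each luminal-like cluster of the DoubleTg (left) and TripleTg (right) library, with clusters ordered from high to low hMETtg (CPM beside the cluster number), coloured by log2(CPM + 1) with the CPM printed in each tile. DoubleTg cluster 6, with 133 CPM of hMETtg, holds 12.01 CPM of Dusp6, and the Dusp4 column is higher in all 9 TripleTg clusters than in any of the 9 DoubleTg ones.

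The next comparison asked whether the feedback genes differ with the level of the hMETtg transgene. Epcam+ Ptprc- DoubleTg cells were thinned to 5000 UMIs, so that depth did not set the chance of finding a transgene UMI, and cells with 4 or more hMETtg UMIs were set against cells with 0. Taken over all such cells, Dusp5, Dusp4, Dusp6 and Phlda1 were higher in the hMETtg-high cells and Spry1, Spry4, Spred1, Etv4 and Etv5 lower, with Spry2 level. The log2 ratios were 1.29 (1.19 to 1.39) for Dusp5, 0.87 (0.53 to 1.22) for Dusp4, 0.67 (0.57 to 0.78) for Dusp6 and 0.66 (0.60 to 0.71) for Phlda1. They were −1.32 for Spry1, −2.15 for Spry4, −0.79 for Spred1 and −2.93 (−4.16 to −1.91, 8 against 156 UMIs) for Etv4, and −0.02 (−0.18 to 0.14) for Spry2. Of the 8 genes at 10 CPM in either bin 4 were at least 1.5-fold higher, against 15.9% of 7545 genes, and 3 at least 1.5-fold lower, against 16.6%. The make-up of the bins moved along. Of the 3697 cells with 0 hMETtg UMIs, 40.4% were luminal-like and 43.3% basal-like, whereas of the 1085 cells with 4 to 7 UMIs 94.5% and 0.184% were. The 6 basal markers summed to 6737 CPM in the former and 255 CPM in the latter, and the fibroblast markers to 1311 and 56.6 CPM.

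Among luminal-like cells alone, Dusp5, Dusp6, Spry2 and Phlda1 were higher bin by bin or in the upper bins. Dusp6 was at 75.6 CPM (69.5 to 82.1) in the 1495 cells with 0 hMETtg UMIs, 109 CPM (98.8 to 121) in the 732 cells with 1, 134 CPM (125 to 144) in the 1081 cells with 2 to 3, 172 CPM (160 to 183) in the 1025 cells with 4 to 7 and 199 CPM (179 to 222) in the 345 cells with 8 or more. Each of the first 4 bins lay above the one before it beyond the intervals, and the last 2 overlapped. The share of cells with a Dusp6 UMI went from 24.9% to 53.9%. Dusp5 was at 105, 123.5, 166, 197 and 321 CPM over the same bins, and all neighbouring intervals were apart except those of the lowest pair (97.9 to 113 and 112 to 135 CPM). Phlda1 was at 372, 434, 482, 529 and 581 CPM, and Spry2 at 39.1, 39.3, 41.8, 58.3 and 78.8 CPM, so that Spry2 was level over the first 3 bins and higher in the last 2.

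The other members did not differ between the lowest and the highest bin beyond their intervals. Spred1 was at 13.8 CPM with 0 hMETtg UMIs and 15.1 CPM with 8 or more, and Dusp4 at 12.4 CPM (10.0 to 15.2) and 13.9 CPM with overlapping intervals. Between them Dusp4 was at 16.9, 19.1 and 18.5 CPM, and the bin with 2 to 3 UMIs (15.6 to 23.1) was clear of that with 0. Spry1 was at 5.89 and 2.90 CPM and Spry4 at 4.95 and 2.32 CPM, each with 4 or 5 UMIs in the highest bin. Etv4 rested on 10 and 2 UMIs and Etv5 on 0 and 1 UMIs, which at this depth allows no comparison.

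Between 4 or more and 0 hMETtg UMIs the log2 ratios in luminal-like cells were 1.24 (1.10 to 1.39) for Dusp6, 1.12 (0.99 to 1.24) for Dusp5, 0.70 (0.48 to 0.92) for Spry2, 0.54 (0.47 to 0.62) for Phlda1, 0.48 (0.08 to 0.89) for Dusp4 and 0.18 (−0.22 to 0.59) for Spred1. Of the 6 genes at 10 CPM 3 were past 1.5-fold upward, against 6.27% of 7045 genes, and 0 downward, against 3.11%. The negative ratios of the pooled comparison were thus not seen within this class for Spred1, and for Spry1 (−0.58, −1.33 to 0.14), Spry4 (−0.56, −1.38 to 0.23) and Etv4 (−0.20, −1.74 to 1.30) the interval included 0. Basal markers summed to 433 CPM in the luminal-like cells with 0 hMETtg UMIs and 138 CPM in those with 4 to 7, and the 8 stress genes to 3275 and 2829 CPM. Immune markers went the other way, from 61.7 CPM with 0 to 195 CPM with 8 or more hMETtg UMIs, and proliferation markers from 20.3 to 4.06 CPM. Their part in the ratios was not tested.

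**Figure D3:**
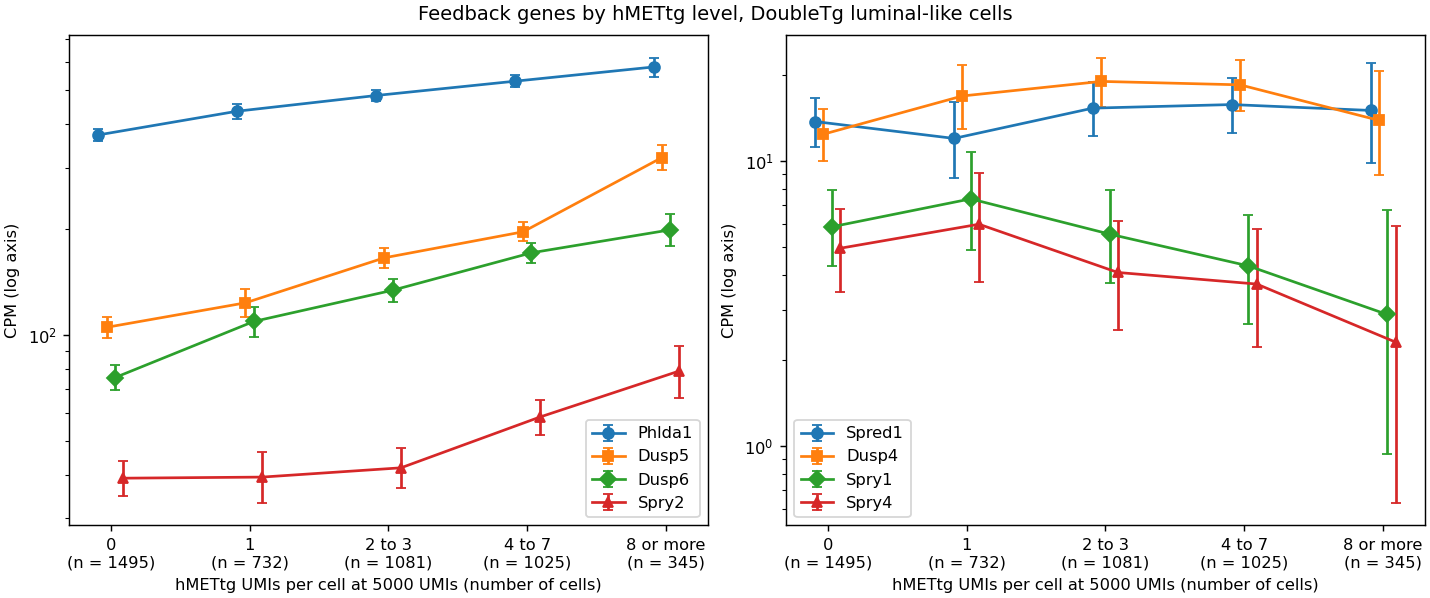
Level (CPM, log axis) of 8 of the genes in DoubleTg luminal-like cells by the number of hMETtg UMIs per cell after thinning to 5000 UMIs (number of cells under each bin), with 95% counting intervals. Dusp6 goes from 75.6 to 199 CPM, Dusp5 from 105 to 321 CPM and Phlda1 from 372 to 581 CPM, while Spred1, Dusp4, Spry1 and Spry4 (right) show overlapping intervals between the lowest and the highest bin.

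Since hMETtg and the feedback genes both differ between luminal-like clusters, the ratio was also taken inside each of the 8 clusters with at least 20 cells in both bins (1356 and 1459 cells). Dusp6 was higher in the hMETtg-high cells in all 8 clusters, with a weighted mean log2 ratio of 0.83 (0.664 to 0.9997) and a range from 0.42 (0.13 to 0.73) in cluster 13 to 1.64 (0.82 to 2.49) in cluster 10. The interval lay above 0 in 7 of the 8, the exception being cluster 6, with 5 against 23 UMIs. Dusp5 was higher in 7 of 8 clusters, with a mean of 0.68 (0.53 to 0.83), and in cluster 4 it was at −0.20 (−0.93 to 0.47).

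Spry2 had a mean of 0.55 (0.30 to 0.80) and was above 0 in 7 of 8 clusters, but its interval cleared 0 in 2 of them, clusters 10 (1.64) and 5 (1.29). Phlda1 had a mean of 0.42 (0.33 to 0.50) and ran from −0.36 (−0.62 to −0.11) in cluster 4 to 1.80 (1.45 to 2.16) in cluster 10. In cluster 10 all 4 genes were more than 2-fold higher in the hMETtg-high cells, Phlda1 at 407 against 117 CPM and Spry2 at 123 against 39.3 CPM. For Dusp4 the mean was −0.10 (−0.64 to 0.44), for Spred1 0.09 (−0.34 to 0.51), for Spry4 −0.25 (−1.20 to 0.71) and for Spry1 −0.74 (−1.68 to 0.20). Spry1 was at −3.07 (−5.46 to −1.33, 3 against 21 UMIs) in cluster 12. It was above 0 in 3 of the 5 clusters with a ratio, where no interval cleared 0. Of the 8 members at 10 CPM in some cluster 2 were past 1.5-fold upward, where 3.54% of 9358 genes were, and 1 downward (Spry1, with an interval that includes 0), where 3.47% were. Over the alternative settings the Spry1 mean ran from −0.89 to 0.25, so its sign was not stable. Mouse Met was also higher in all 8 clusters, with a mean of 1.76 (1.60 to 1.93). Reads of hMETtg and Met may be shared between the 2 features, and this was not tested. For hHGFtg the mean was 0.32 (0.23 to 0.42), with 6 of 8 clusters above 0. Clusters 5 (−0.79, −0.99 to −0.59) and 16 (−0.41, −0.70 to −0.12) were below 0 beyond their intervals.

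**Figure D4:**
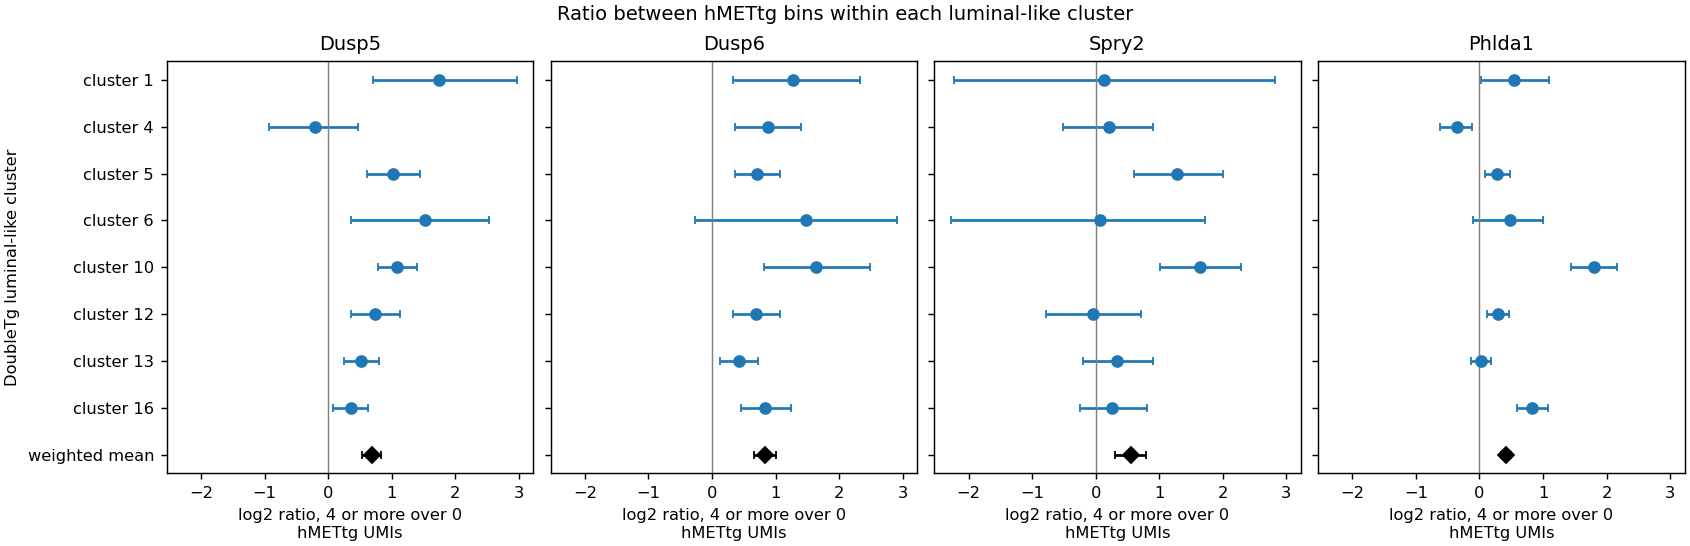
Log2 ratio of Dusp5, Dusp6, Spry2 and Phlda1 between DoubleTg luminal-like cells with 4 or more and with 0 hMETtg UMIs at 5000 UMIs, within each of 8 clusters (blue, 95% counting intervals) and as the mean weighted by cell numbers (black diamond). Dusp6 lies above 0 in all 8 clusters, with a mean of 0.83, and Phlda1 runs from −0.36 to 1.80.

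Other genes of the pathway in the same luminal-like bins were read from lists of receptors, adaptors, core kinases, brakes and responsive genes. Of 11 ERK-responsive genes at 10 CPM, 6 were at least 1.5-fold higher in hMETtg-high cells, against 6.27% of all genes, and 0 lower, against 3.11%. Among them were Ereg and Areg, both ligands of the EGF receptor, with log2 ratios of 2.52 (49.1 against 8.56 CPM) and 1.98 (518 against 132 CPM), Epha2 with 0.90 and Egr1 with 0.74. Ccnd1 (−0.34, −0.61 to −0.07) and Myc (−0.20, −0.34 to −0.05) were lower by less than that fold, and Fos was at −0.07 (−0.17 to 0.02). Of 6 adaptors and exchange factors 1 was higher (Sos1, 0.60, 0.17 to 1.04). Of 6 other brakes at 10 CPM, 1 was higher (Dusp7, 0.70), and of 5 receptors 2 were, Met (2.02) and Egfr (0.97). Of the 10 core genes and the 8 stress genes 0 were higher by that fold, and Atf3 was lower among the stress genes (−0.93).

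In TripleTg hMETtg UMIs were few, and how far they mark cells that express the transgene was not tested. At 5000 UMIs, 10.4% of luminal-like cells held an hMETtg UMI, against 14.5% of fibroblast-like and 1.21% of macrophage-like cells, with medians of 25412, 5648 and 10065.5 UMIs before thinning. Among the fibroblast-like cells, hMETtg was at 131 CPM in cluster 14 and at 26.9 and 8.59 CPM in clusters 5 and 6. In DoubleTg 68.0% of luminal-like and 7.82% of fibroblast-like cells held an hMETtg UMI. With this limit, TripleTg cells with 1 or more hMETtg UMIs were set against cells with 0, since 209 Epcam+ Ptprc- cells had 2 or more. The log2 ratio was −0.32 (−0.52 to −0.13) for Dusp6, 0.27 (0.13 to 0.40) for Dusp5, −0.10 (−0.16 to −0.04) for Phlda1 and 0.14 (−0.03 to 0.31) for Dusp4. Of 7 members at 10 CPM 0 passed 1.5-fold upward, against 2.31% of all genes, and 0 downward, against 3.04%. Seminal vesicle-like cells made up 4.96% of the cells with 0 UMIs and 45.9% of those with 2 or more. In that class Dusp6 was at 13.1 CPM and Dusp5 at 170 CPM. Within TripleTg luminal-like cells Dusp6 was at 71.5 CPM (67.9 to 75.3) with 0, 66.5 CPM (55.7 to 78.8) with 1 and 86.1 CPM (58.5 to 122) with 2 or more hMETtg UMIs, in 4090, 400 and 72 cells, and these intervals overlap. Phlda1 was at 710, 729.5 and 736 CPM in the same bins, also with overlapping intervals. Dusp5 was at 106 CPM (101 to 110), 94.5 CPM (81.5 to 109) and 133 CPM (98.3 to 177) in these bins, and its intervals overlap too. Dusp4 was at 81.2 CPM (77.4 to 85.2), 107.5 CPM (93.6 to 123) and 88.9 CPM (60.8 to 125), so that the middle bin was clear of the lowest.

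Between the 2 libraries, luminal-like cells had Dusp4 as the member with the largest ratio upward in TripleTg and Spry2 as that with the largest downward. Dusp4 went from 13.6 CPM in DoubleTg to 85.4 CPM in TripleTg, a log2 ratio of 2.65 (2.59 to 2.71). Spry1 went from 5.93 to 18.2 CPM (1.62, 1.52 to 1.72), Phlda1 from 433 to 761 CPM (0.81, 0.80 to 0.83) and Spred1 from 12.8 to 16.5 CPM (0.36). Spry2 went from 44.3 to 15.7 CPM (−1.50, −1.56 to −1.43), Spry4 from 3.86 to 1.82 CPM (−1.09, −1.29 to −0.88), Dusp6 from 114 to 73.8 CPM (−0.62, −0.66 to −0.59) and Dusp5 from 139 to 109 CPM (−0.36). Etv4 was at −0.28 (−0.63 to 0.07), and Etv5 at 1.52 on 71 against 32 UMIs. The direction thus differed between genes of the same family, upward for Spry1 and downward for Spry2 and Spry4.

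Of 7 members at 10 CPM in luminal-like cells 3 were past 1.5-fold upward, where 20.2% of 7386 genes were, and 2 downward, where 21% were. The median over these 7 members was 0.36 and that over the 7386 genes 0.02, while over all 10 members it was 0.04, and −0.16 with cells thinned to 5000 UMIs. The clusters that make up the class differ between the libraries, with clusters 13, 5 and 12 the largest in DoubleTg and clusters 1, 4 and 7 in TripleTg. Pbsn took 0.166% of UMIs in the DoubleTg luminal-like cells and 0.000695% in the TripleTg ones, and Sbp 6.05% and 2.67e-05%. The hMETtg RNA was at 493 CPM in DoubleTg and 25.8 CPM in TripleTg luminal-like cells. In luminal-like cells with 0 hMETtg UMIs at 5000 UMIs, hHGFtg was at 250 CPM in DoubleTg and 16.3 CPM in TripleTg. Immune markers there summed to 61.7 and 855 CPM, fibroblast markers to 33.2 and 164 CPM and basal markers to 433 and 254 CPM. The part of these differences in the ratios was not tested.

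In basal-like cells the shift of Dusp4 was larger, from 2.66 CPM (68 UMIs) to 61.7 CPM (1724 UMIs), a log2 ratio of 4.53 (4.18 to 4.91). Phlda1 was higher by 1.15 (1.11 to 1.19), and Dusp5 stayed within its interval at 0.05 (−0.04 to 0.14). Spry2 was at −2.05 (−2.20 to −1.91), Spry4 at −1.42, Dusp6 at −1.05 (−1.13 to −0.97), Spred1 at −0.68 and Spry1 at −0.51 (−0.78 to −0.24). Etv4 was at 0.27 (0.08 to 0.46). Etv5 was at 2.11 (1.54 to 2.71), with 15.2 CPM in TripleTg cluster 12, led by Mt4 and Igfbp2, and 0.89 to 2.59 CPM in the other 3 basal-like clusters. With coarser clusters (resolution 0.5), Etv5 was at 0.0067, Etv4 turned to −0.40 and Spry4 was at −2.49. Of 9 members at 10 CPM 2 were past 1.5-fold upward, where 22.6% of 7370 genes were, and 4 downward, where 26.4% were. The median over these 9 members was −0.51, against −0.10 over the 7370 genes. The 8 stress genes moved in the same comparison, with 1 higher and 6 lower, and their summed level was 3351 CPM in DoubleTg and 2107 CPM in TripleTg. Their part in the ratios was not tested.

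Other classes of the 2 libraries give Dusp4 and Spry2 a wider setting. Dusp4 was higher in TripleTg in fibroblast-like (27.7 against 9.46 CPM), endothelial-like (23.4 against 8.09 CPM), macrophage-like (16.6 against 4.64 CPM) and smooth muscle and pericyte-like cells (65.5 against 18.4 CPM), and in seminal vesicle-like cells it was at 29.7 against 25.9 CPM (log2 ratio 0.19, −0.07 to 0.47). Epcam, an epithelial gene that the stromal and immune classes should lack, was at 451, 292, 145 and 504 CPM in the first 4 of these classes of TripleTg and at 167, 534, 105 and 819 CPM in those of DoubleTg. TripleTg luminal-like cells held 1832 CPM of Epcam and 85.4 CPM of Dusp4, and the part of epithelial RNA in the Dusp4 levels of these classes was not tested. Spry2 was lower in TripleTg fibroblast-like (42.3 against 155 CPM) and smooth muscle and pericyte-like cells (109 against 311 CPM), and its log2 ratio in endothelial-like cells was 0.14 (−0.31 to 0.59). Dusp6 in endothelial-like cells was at −1.14 (−1.27 to −1.01), close in size to its ratio in basal-like cells, and Spry4 there at −1.61 (−1.96 to −1.27). Dusp6 was at −0.93 (−1.55 to −0.32) in smooth muscle and pericyte-like and −0.58 (−0.91 to −0.25) in seminal vesicle-like cells. In fibroblast-like cells it was at −0.08 (−0.37 to 0.21), and in macrophage-like cells at 0.65 (0.17 to 1.14).

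**Figure D5:**
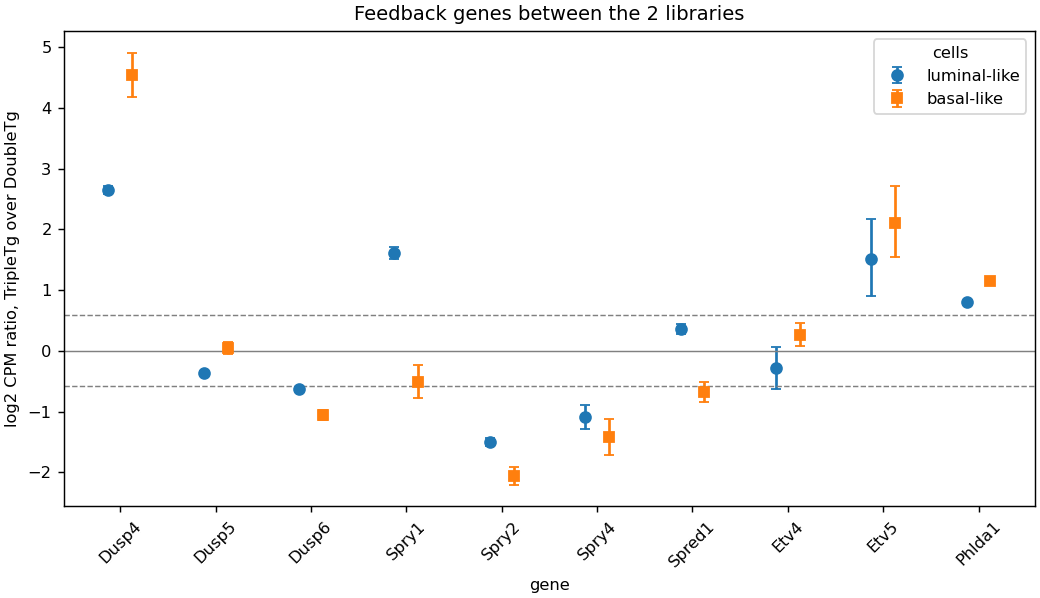
Log2 ratio of CPM in TripleTg over DoubleTg for the 10 genes in luminal-like (circles) and basal-like cells (squares), with 95% counting intervals and dashed lines at 1.5-fold in either direction. Dusp4 is at 2.65 and 4.53, Spry2 at −1.50 and −2.05, and Spry1 is above 0 in luminal-like cells and below 0 in basal-like cells.

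Pathway genes outside the 10 also went both ways in luminal-like cells. Of 12 other ERK-responsive genes at 10 CPM, 5 were at least 1.5-fold higher in TripleTg, against 20.2% of all genes. Another 3 were at least 1.5-fold lower, against 21%. Dusp2, a nuclear ERK phosphatase, had the largest ratio (4.70, 32.5 against 1.25 CPM), followed by Ier3 (1.78, 1845 against 538 CPM) and Areg (1.69). Fosl1 (−0.82), Fos (−0.78) and Myc (−0.74) were lower. Of 5 receptors at 10 CPM, Erbb3 was higher (1.12) and Met (−1.13) and Igf1r (−2.15) lower. Of the 10 core genes and the 6 adaptors and exchange factors 0 passed 1.5-fold in either direction.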

How the data were processed

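Dissociated prostate tumour tissue of 1 library per genotype was profiled by 10x 3′ single-cell RNA-seq. Per the methods, the tissue was digested with collagenase in medium with serum and dihydrotestosterone before the cells were loaded. The part of this step in the RNA levels was not tested. The deposited values are raw UMI counts per gene and cell, which the authors made with Cell Ranger (6.0.2 in the submitters' processing notes, 6.1.1 in a file header) on mm10 with both transgene sequences added. Which reads were assigned to hMETtg and which to mouse Met was not tested. Cells were kept with more than 200 and fewer than 7000 genes and under 15% mitochondrial UMIs, which all deposited TripleTg cells already met. The kept DoubleTg cells outnumber those the study states after the same limits, for which no reason was found.

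Each library was clustered with scanpy 1.11.5 (2000 variable genes, 20 principal components, 15 neighbours, Leiden resolution 1), without the members, pathway genes and transgenes. The analysis ran in Python 3.11.15 with igraph 0.11.9, and edgeR 4.0.16 gave TMM factors for 1 alternative. Clusters were named from marker lists by score thresholds set after the clusters had been seen, so the names are rebuilt here. Doublet scores called 237 DoubleTg cells and 0 TripleTg cells, and its calls were used only as an alternative in DoubleTg.

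UMIs were summed per class. Cells were thinned to 5000 UMIs where hMETtg levels or shares of cells were compared, which left out 2171 DoubleTg and 1699 TripleTg cells below that depth. Within clusters, log2 ratios with a prior count of 0.5 were averaged with weights from the cell numbers over clusters with at least 20 cells in both bins. Intervals (exact Poisson for levels, Clopper-Pearson for shares, conditional binomial for ratios, delta method within clusters) are at 95% and cover counting error only, and no p-value was computed, since cells of 1 library are not replicates. The ratio calculation was tested on simulated data. Counts of genes past 1.5-fold cover those genes that reached 10 CPM on one side of a comparison. The text names the 10 members, examples with the largest change from the pathway lists, the transgenes, and for each member 1 or all of the 3 most alike genes. Members, lists and marker genes were chosen with earlier results of these data known. The alternatives covered scaling, resolution, clustering genes, doublets, depth and bins. Promoter windows come from RefSeq (GRCm38.p6) and gene spans from a GRCm38 annotation matched by Ensembl identifier.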

Additional observations from a re-analysis of the deposited data

Results flagged for a closer look

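The luminal-to-basal log2 ratio of Spry1 was −0.78 in DoubleTg and 1.34 in TripleTg, so that the order of the classes was opposite in the 2 libraries. Seen from the genotypes, Spry1 was higher in TripleTg luminal-like cells (1.62) and lower in TripleTg basal-like cells (−0.51). Spred1 likewise had a TripleTg over DoubleTg ratio of 0.36 in luminal-like and −0.68 in basal-like cells. Between Epcam+ Ptprc- cells with more and with 0 hMETtg UMIs, Dusp6 was at 0.67 in DoubleTg and −0.32 in TripleTg, and Phlda1 at 0.66 and −0.10. Within TripleTg luminal-like cells the negative sign was not seen beyond the intervals, with Dusp6 at 71.5, 66.5 and 86.1 CPM and Phlda1 at 710, 729.5 and 736 CPM for 0, 1 and 2 or more hMETtg UMIs. In TripleTg, 10.4% of luminal-like, 14.5% of fibroblast-like and 1.21% of macrophage-like cells held an hMETtg UMI at 5000 UMIs, and how far such UMIs mark expression was not tested. The bins were not the same in the 2 libraries (4 or more UMIs against 0 in DoubleTg, 1 or more against 0 in TripleTg). Each pair was picked out because its counting intervals lay on opposite sides of 0, and with 1 library per genotype the differences were not tested.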

How the results depend on the processing

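No paired analysis was possible because there was 1 library per genotype. Of 558 member ratios under alternatives, 479 moved by less than 1.2-fold, 74 by more, and 5 that had passed 1.5-fold with an interval clear of 0 changed sign. The median luminal-to-basal ratio of the 10 members in DoubleTg, −0.77, was −0.54 with TMM factors and −0.60 without the 50 most abundant genes. The genotype median of the 10 was −0.16 in luminal-like cells thinned to 5000 UMIs (0.04 otherwise) and −0.49 in basal-like cells at resolution 0.5 (−0.23 otherwise). The hMETtg median of the 10 members over all Epcam+ Ptprc- cells, −0.40 (0.32 over the 8 at 10 CPM), was 0.10 at 2500 UMIs per cell, 0.048 with all UMIs, 0.48 in luminal-like cells only and −0.056 in TripleTg cells. The sign changed for Spred1 in luminal-like cells (0.18) and in TripleTg cells for Dusp6 (−0.32), Etv4 (0.040), Etv5 (0.89) and Phlda1 (−0.10). The causes were not tested. Within DoubleTg clusters the mean ran from 0.62 to 1.16 for Dusp6, 0.58 to 1.08 for Dusp5, 0.50 to 0.74 for Spry2 and 0.14 (2500 UMIs per cell) to 0.63 for Phlda1. The 5% highest doublet scores, summed ratios, splits of clusters by depth and subtype scaling were added after seeing the data. Removal of called doublets was not run between genotypes. A 50 CPM minimum was applied to the all-gene medians alone. The depth limits Etv4, Etv5, Spry1 and Spry4 in luminal-like cells.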

Other observations

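The basal-like clusters also differed among themselves. In DoubleTg, cluster 2, led by Krt15 and Krt14, held 180 CPM of Dusp6 and 19.2 CPM of Spry4, and cluster 3, led by Lgals7 and Krt5, held 109 and 9.33 CPM. In TripleTg, Etv4 was at 36.8 CPM in cluster 12, led by Mt4 and Igfbp2, and at 10.6 CPM in cluster 10. The 23 cycling cells of TripleTg cluster 11 held 1289 CPM of Phlda1, against 314 CPM in cluster 22, led by Clca3a2 and Adm. In seminal vesicle-like cells Dusp5 was at 170 CPM in TripleTg and 83.5 CPM in DoubleTg. These clusters were chosen after their values were seen, and the differences were not tested.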
